A study of Mus musculus with 9 samples.

Results

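Natural killer (NK) cells sorted from the bone marrow of NKDxIL15tg mice were compared with NK cells sorted from the spleen of IL15tg mice; the design text calls the former immature and the latter mature. The comparison was set by the sample titles and takes 6 of the 9 arrays, 3 in each group. The other 3 arrays, of NK cells from the spleen of NKDxIL15tg mice, served as the middle step: they share the organ with one end and the genotype with the other. RNA of each sample was hybridised to an Affymetrix array with 45101 probe sets, each of which reads 1 transcript or a set of related transcripts as a fluorescence intensity. The 2 NKDxIL15tg groups are called marrow and NKD spleen here.

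All 3 groups carry IL15tg, a transgene for the cytokine IL-15. NKD mice, another transgenic line, have few mature NK cells, and their transgene has been reported to sit in the Atf2 gene. NKDxIL15tg mice carry both. The labels call the arrays of a group biological replicates and say that the cells were purified by flow cytometry. The age, sex and strain of the mice, the promoter that drives IL15tg, the surface markers of the sort and any pooling of animals are not stated in the labels. Organ and NKD genotype differ together between marrow and IL15tg spleen, so that their parts in a difference cannot be told apart. P-values measure the spread between these arrays, which may hold technical as well as biological variation.

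NK cells are lymphocytes that kill infected and transformed cells with perforin and granzymes and secrete interferon gamma. They arise from lymphoid progenitors in the bone marrow and need IL-15 to survive. During maturation mouse NK cells divide less, acquire CD11b and KLRG1, and leave the marrow with the help of the sphingosine 1-phosphate receptor S1PR5. The transcription factors T-bet, Eomes and Zeb2 control these stages.

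Median intensity was 56.6 to 59.1 on 8 arrays and 64.9 on marrow replicate 3. It also correlated less with the arrays of its group (mean rank correlation 0.935, where the others had 0.956 to 0.980), and 2540 of its probe sets exceeded every other array by more than 2-fold, where no other array had more than 18. Its actin probe sets gave a 3' over 5' log2 ratio of 0.93, and those of the other arrays 1.49 to 2.73. Its Gapdh probe sets did not stand apart, at 2.33 within the 1.62 to 3.21 of the other arrays. IL15tg spleen replicate 3 had the highest ratio of both, at 2.73 and 3.21. Most counts and many of the changes described in full are therefore also given without marrow replicate 3.

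The NK identity of the sorted cells was checked with 12 marker genes, all of which had a probe set and a group mean above the floor of 16 (the intensity to which lower values were raised) in every group. Their summed intensity was 45072 to 45943 in IL15tg spleen, 30631 to 32340 in NKD spleen and 27666 to 30830 in marrow. Of the 12, 5 fell (Klrd1, Klre1, Klrb1a, Klrk1 and Tbx21, described with their groups; 6 without marrow replicate 3, with Ncr1), 0 rose and 7 did not pass the test (Gzma, Tyrobp, Nkg7, Klrb1f, Eomes, Ncr1 and Il2rb). Klrd1 fell from a mean of 5941 to 898 and Klre1 from 4217 to 778, the larger part of the lower sum in marrow. Gzma, which encodes granzyme A, read 11241, 11556 and 11794 in IL15tg spleen, 10099, 11276 and 10302 in NKD spleen and 8524, 10233 and 8634 in marrow. Its change from IL15tg spleen to marrow was -0.34 ± 0.11 (adjusted p = 0.068) and did not pass the test (-0.30 without marrow replicate 3). It passed with a floor of 64 (adjusted p = 0.0277), an intensity trend (0.0167) and array weights (0.0471) in limma. Without marrow replicate 2 it passed too (0.0432). Tyrobp, the DAP12 adaptor of activating receptors, was at 6483 ± 247 in IL15tg spleen and 5581 ± 69.9 in marrow (SD, n = 3), and Nkg7, a cytotoxic granule protein, at 5495 ± 110 in IL15tg spleen and 4768 ± 421 in marrow (SD, n = 3). Neither of these 2 genes passed the test, at -0.22 ± 0.09 (adjusted p = 0.159) and -0.21 ± 0.11 (adjusted p = 0.246). Fewer cells of a type and less RNA per cell cannot be told apart in such bulk samples.

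Of 44402 probe sets tested with limma, 5971 (13.4%) passed a Benjamini-Hochberg adjusted p of 0.05 between marrow and IL15tg spleen. The higher ones in marrow were 2687 (6.05%) and the lower ones 3284 (7.4%). Quantile normalization changed this split to 2091 higher and 3869 lower. Without marrow replicate 3, 6346 passed (14.3%), of which 5145 had been called in the same direction with it. With 1 probe set per gene, 2550 of 18069 genes (14.1%) were called, 1451 higher (8.03%) and 1099 lower (6.08%); without that replicate they were 1466 (8.12%) and 1129 (6.25%). The counts fell most without single IL15tg spleen arrays, to 3030, 3391 and 3881 probe sets without replicates 1, 2 and 3. Values of log2 changes are marrow over IL15tg spleen unless another pair is named, with the standard error from limma.

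**Figure D1:**
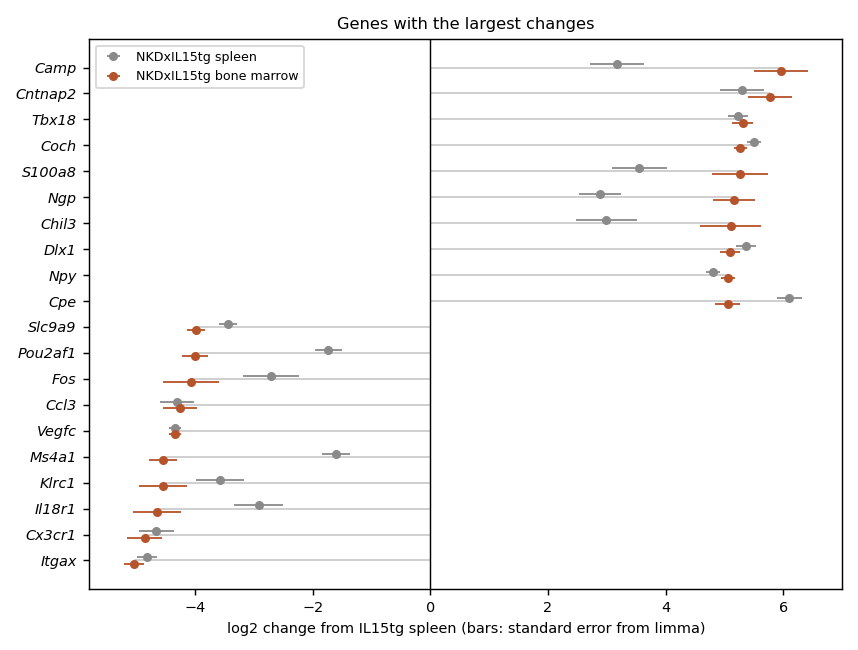
Log2 change from IL15tg spleen, on the x axis, of the 10 genes with the largest rise and the 10 with the largest fall in NKDxIL15tg bone marrow, one gene per line. Orange points are marrow and grey points NKDxIL15tg spleen, both with the standard error from limma. For most genes the grey point lies next to the orange one, as for Itgax at -4.81 and -5.04, whereas Ms4a1 (-1.61 and -4.55) and Camp (3.17 and 5.96) lie apart.

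Genes of neutrophil granules made up 4 of the 10 largest rises (Camp, S100a8, Ngp and Chil3) and are described with the other cell types. The other 6 were Cntnap2, a contactin-associated membrane protein of axons, Npy, neuropeptide Y, Cpe, the prohormone-processing carboxypeptidase E, Coch, the extracellular matrix protein cochlin, and the transcription factor genes Tbx18 and Dlx1. Npy (probe set 1419127_at) read 33.3, 37.8 and 39.0 in IL15tg spleen, 1122, 980.4 and 974 in NKD spleen and 1349, 1101 and 1220.0 in marrow. Every NKDxIL15tg array lay far above every IL15tg array, and the change was 5.06 ± 0.12 (adjusted p = 9.46e-08), or 5.06 without marrow replicate 3. Coch (probe set 1423285_at) read 58.4, 49.3 and 56.3 in IL15tg spleen, 2535, 2682 and 2182 in NKD spleen and 2209, 2146 and 1969 in marrow, again with no overlap, a change of 5.27 ± 0.12 (adjusted p = 9.46e-08) (5.32 without that replicate). Cntnap2 rose by 5.77 ± 0.38, from 32.7 ± 11 (SD, n = 3) to 1799 ± 606 (SD, n = 3). Tbx18, Cpe and Dlx1 read 7.89, 14.5 and 16.2 on average in IL15tg spleen, near or under the floor of 16, so that their changes of 5.31 ± 0.17, 5.06 ± 0.22 and 5.09 ± 0.17 depend on that floor. NKD spleen was high in these 6 genes too, and its step to marrow passed the test for none of them (log2 -1.05 for Cpe, the furthest from 0, to 0.48 for Cntnap2). Second probe sets of Cntnap2, Tbx18 and Cpe were called higher too, at smaller changes of up to 4.39.

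Genes of NK function made up 5 of the 10 largest falls. Itgax (probe set 1419128_at), the CD11c integrin subunit, read 1795, 1867 and 1448 in IL15tg spleen, 72.0, 54.9 and 55.4 in NKD spleen and 56.6, 42.0 and 56.8 in marrow, and Cx3cr1 (probe set 1450020_at), the fractalkine receptor of late NK cells, read 1051, 903 and 904 in IL15tg spleen, 32.9, 60.4 and 26.8 in NKD spleen and 25.9, 45.2 and 30.1 in marrow. In both cases the 6 NKDxIL15tg arrays lay together, far under the 3 IL15tg arrays. The changes were -5.04 ± 0.17 (adjusted p = 9.76e-07) and -4.86 ± 0.30 (adjusted p = 2.16e-05), and -5.12 and -4.80 without marrow replicate 3. A second probe set of Cx3cr1, dim in all groups, did not pass the test at -0.31. Il18r1, Klrc1, Ccl3, Fos and the B cell genes Ms4a1 and Pou2af1 follow with their groups. Vegfc (probe set 1439766_x_at), a growth factor of lymphatic vessels, fell from 325 ± 29.9 (SD, n = 3) to a marrow mean of 6.18, under the floor, which sets its change of -4.34 ± 0.10. Slc9a9, an exchanger of sodium and protons in endosomes, fell from 429 ± 35.3 (SD, n = 3) to 27.1 ± 2.14 (SD, n = 3), a change of -3.98 ± 0.16, and 2 of its 3 other probe sets fell as well.

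**Figure D2:**
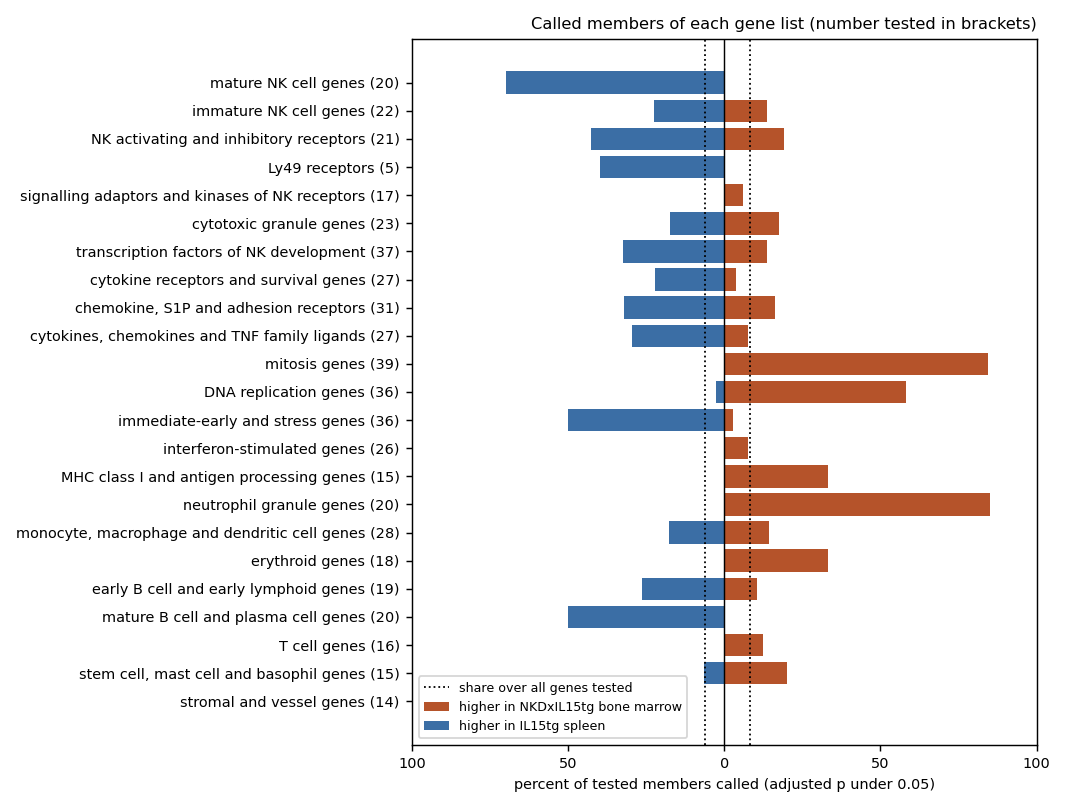
Percent of the tested members of each gene list that were called (adjusted p under 0.05), with members higher in NKDxIL15tg bone marrow to the right and members higher in IL15tg spleen to the left. Dotted lines mark the share over all genes tested, 8.03% higher and 6.08% lower. The bars of mitosis and neutrophil granule genes reach furthest right and those of mature NK cell genes furthest left.

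Genes of mature NK cells fell as a group. Of 20 tested members, 14 were lower in marrow, 0 higher and 6 did not pass the test. Their median log2 change was -1.26, beside 0.10 over all genes tested, and the counts were the same without marrow replicate 3 (median -1.25). Itgam (probe set 1422046_at), which encodes CD11b, read 338, 409.8 and 386 in IL15tg spleen, 54.1, 48.8 and 64.2 in NKD spleen and 37.4, 40.6 and 40.4 in marrow. S1pr5 (probe set 1449365_at) read 2313, 2416 and 1981 in IL15tg spleen, 811, 324 and 641 in NKD spleen and 186, 111 and 154 in marrow. Both genes stepped down from IL15tg spleen to NKD spleen to marrow with no overlap of the 3 groups. Their changes were -3.26 ± 0.13 (adjusted p = 2.69e-06) and -3.92 ± 0.32 (adjusted p = 0.000114), or -3.27 and -3.96 without marrow replicate 3. Zeb2 (probe set 1422748_at), a transcriptional repressor that drives the last stage of maturation, read 2087, 1765 and 1572 in IL15tg spleen, 389, 151 and 306 in NKD spleen and 177, 122 and 158 in marrow. Here both NKDxIL15tg groups lay under IL15tg spleen but overlapped each other, and the change was -3.58 ± 0.31 (adjusted p = 0.000177) (-3.61 without marrow replicate 3). All 4 other probe sets of Zeb2 that carry its symbol fell, at -2.89 to -3.20.

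Klrg1 (probe set 1420788_at), the inhibitory receptor of terminally mature NK cells, passed the test by a small margin. Its readings were 5224, 5039 and 5211 in IL15tg spleen, 1209, 3569 and 1633 in NKD spleen and 995, 3105 and 442 in marrow. The 6 NKDxIL15tg arrays all lay under the IL15tg arrays, with replicate 2 the highest of both NKDxIL15tg groups and marrow replicate 3 the lowest of all arrays. The change of -2.22 ± 0.63 (adjusted p = 0.0478) did not pass the test in 7 of the 9 fits that leave out 1 array, among them that without marrow replicate 3, at -1.55 (adjusted p = 0.068, against a range of 0.00676 to 0.134 over the alternatives). Among the members that did not pass were Ccl5 at -0.26 ± 0.09, and Gzmb. Ccl5 did pass in limma with a floor of 64 (adjusted p = 0.0162) or an intensity trend (0.0144). Cd27, the counterpart marker that mouse NK cells lose as they mature, read 349, 408 and 343 in IL15tg spleen, 423, 316 and 394 in NKD spleen and 461, 317 and 601 in marrow. Its groups overlapped, and the change of 0.28 ± 0.22 (adjusted p = 0.422) did not pass the test.

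**Figure D3:**
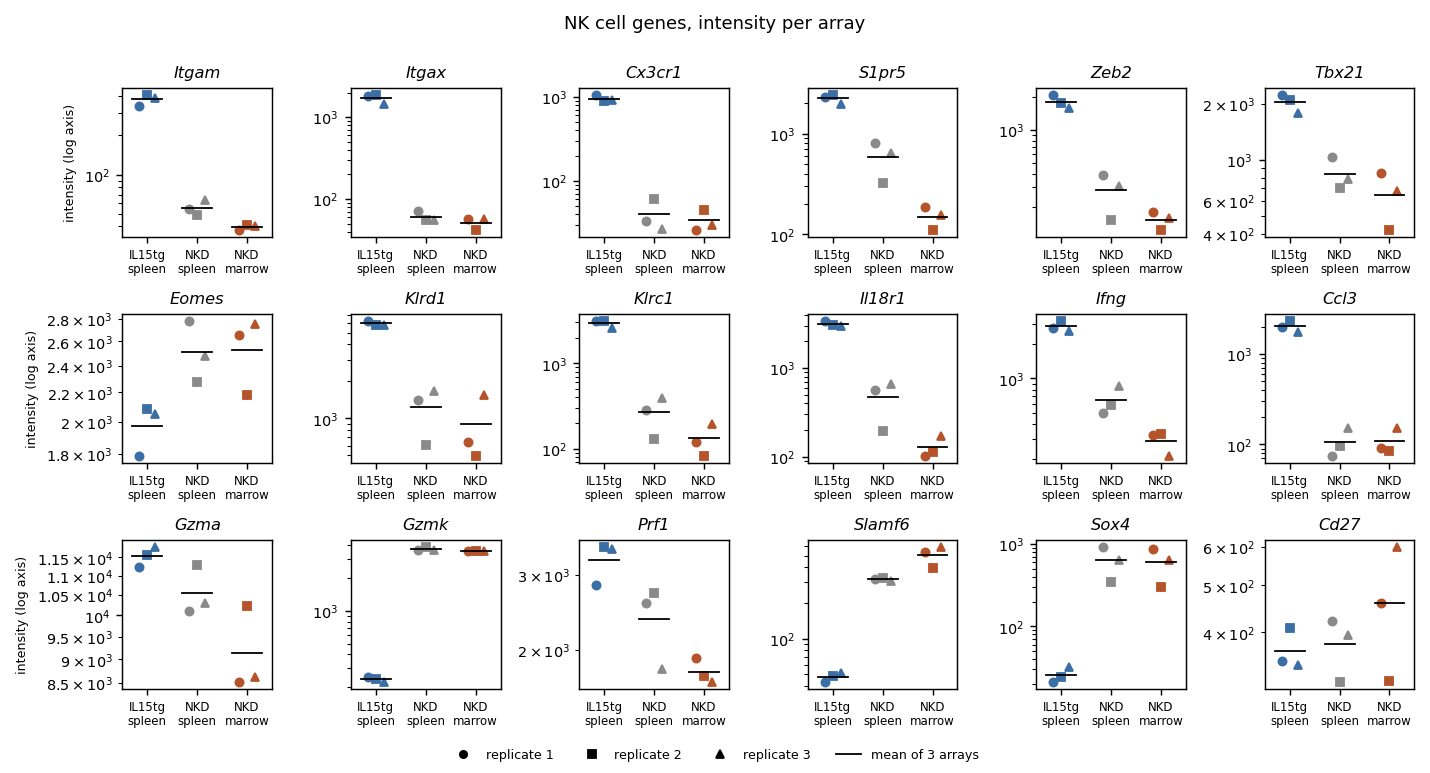
Intensity per array, on a log axis that differs between panels, of 18 NK cell genes in IL15tg spleen (blue), NKDxIL15tg spleen (grey) and NKDxIL15tg bone marrow (orange); symbols are replicates 1 to 3 and lines the means of 3 arrays. Itgam, S1pr5, Il18r1 and Ifng step down through the 3 groups with no overlap. Itgax, Cx3cr1, Ccl3, Gzmk and Sox4 differ between IL15tg spleen and both NKDxIL15tg groups, while the 2 NKDxIL15tg groups lie together.

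Receptors of NK cells moved in both directions. Of 21 activating and inhibitory receptor genes, 9 fell, 4 rose and 8 did not pass the test. The shares over all genes were 6.08% lower and 8.03% higher. Without marrow replicate 3, 4 were higher and 10 lower, and only 2 rose without IL15tg spleen replicate 1 or 2. The CD94/NKG2 receptors, which bind the nonclassical class I molecule Qa-1, and NKG2D, which binds stress ligands, were among those that fell. Klrd1 (probe set 1460245_at), which encodes CD94, read 6223, 5807 and 5792 in IL15tg spleen, 1405, 607 and 1682 in NKD spleen and 640.4, 494 and 1559 in marrow. Klrc1 (probe set 1425005_at), its partner NKG2A, read 3129, 3087 and 2569 in IL15tg spleen, 286, 129 and 396 in NKD spleen and 119, 82.7 and 196 in marrow. Klrk1 (probe set 1450495_a_at), which encodes NKG2D, read 1514, 1453 and 1184 in IL15tg spleen, 179, 98.6 and 239.6 in NKD spleen and 122, 91.2 and 374 in marrow. All 6 NKDxIL15tg arrays lay under the IL15tg arrays for these 3 genes, and marrow overlapped NKD spleen. The changes were -2.91 ± 0.46 (adjusted p = 0.00355), -4.55 ± 0.41 (adjusted p = 0.000208) and -3.10 ± 0.49 (adjusted p = 0.0039). They were larger without marrow replicate 3, at -3.40, -4.88 and -3.71.

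Other receptors that fell were Klre1, a CD94 relative, at -2.62 ± 0.45, Klrb1a, of the NKR-P1 family, at -2.39 ± 0.15, and Cd226, the DNAM-1 receptor, at -1.52 ± 0.18. Slamf6 (probe set 1425086_a_at), a homotypic adhesion and signalling receptor, went the other way. It read 43.2, 48.5 and 51.5 in IL15tg spleen, 318, 326 and 304 in NKD spleen and 536, 394 and 595 in marrow, a rise through all 3 groups with no overlap. Its change was 3.39 ± 0.15 (adjusted p = 4.13e-06) (3.27 without marrow replicate 3), and both of its other probe sets rose too, at 1.44 and 2.56. Crtam, an adhesion receptor of activated killer cells, rose by 1.25 ± 0.16, Cd200r1, an inhibitory receptor, by 0.82 ± 0.17, and Cd160 by 0.62 ± 0.15. The calls of Cd200r1 and Cd160 were lost without IL15tg spleen replicate 1 or 2, that of Cd160 also without marrow replicate 1 or 2 and with both rescalings (quantile normalization and a common 75th percentile), and that of Cd226, which was dim, with a floor of 64. Ncr1 (probe set 1422089_at), which encodes NKp46, read 1532, 1842 and 1553 in IL15tg spleen, 1021, 1139 and 1075 in NKD spleen and 1215, 789 and 1464 in marrow. Marrow replicate 3 was close to the lowest IL15tg array, and the change of -0.55 ± 0.20 (adjusted p = 0.115) did not pass the test; it was -0.74 without that replicate (adjusted p = 0.023, range over the alternatives 0.023 to 0.293).

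Of the Ly49 receptors for classical class I molecules, 5 genes had a probe set of their own that was tested, 2 of which fell. Klra8 (probe set 1425417_x_at), the activating receptor Ly49H, read 5259.9, 5223 and 4910.1 in IL15tg spleen, 1628, 421 and 1609 in NKD spleen and 969, 739.6 and 1562 in marrow. All NKDxIL15tg arrays lay under the IL15tg arrays, and the change was -2.30 ± 0.48 (adjusted p = 0.0143) (-2.60 without marrow replicate 3). It did not pass without IL15tg spleen replicate 1 or 2. Klra5 fell by 2.17 ± 0.37. Klra7, the Ly49G receptor, was at 3034 ± 336 in IL15tg spleen and 3019 ± 235 in marrow (SD, n = 3), a change of 0.00 that did not pass the test. Ly49 genes are near-identical copies, so that probe sets may read more than 1 of them. The signalling adaptors and kinases behind these receptors held 1 call in 17 tested, beside 14.1% of all genes: Sh2d1a, the SAP adaptor of the SLAM family, rose by 1.01 ± 0.14. Without marrow replicate 3, 2 rose and 1 fell, and without marrow replicate 2, 3 rose.

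Transcription factors of NK development moved in both directions. Of 37 tested, 12 fell, 5 rose and 20 did not pass the test, beside 6.08% lower and 8.03% higher over all genes. Their median log2 change was -0.42 (13 lower and 5 higher without marrow replicate 3). Tbx21 (probe set 1449361_at), which encodes T-bet, read 2227, 2099 and 1781 in IL15tg spleen, 1029, 701 and 791 in NKD spleen and 849, 418 and 676 in marrow. The 2 NKDxIL15tg groups overlapped and both lay under IL15tg spleen, and the change was -1.71 ± 0.25 (adjusted p = 0.00261) (-1.77 without marrow replicate 3). Eomes (probe set 1426001_at) read 1787, 2083 and 2051 in IL15tg spleen, 2779.7, 2279 and 2479 in NKD spleen and 2650.5, 2183 and 2752 in marrow. Every NKDxIL15tg array was above every IL15tg array, yet the change of 0.35 ± 0.13 (adjusted p = 0.111) did not pass the test. Irf8, needed for antiviral NK responses, fell by 1.50 ± 0.14, Prdm1, which encodes Blimp-1, fell by 1.06 ± 0.17, and Nfil3, an early NK lineage factor, fell by 1.24 ± 0.27, the last lost without IL15tg spleen replicate 1 or 2 or marrow replicate 1.

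Sox4 (probe set 1433575_at) had the largest rise on this list. It read 21.2, 23.9 and 31.7 in IL15tg spleen, 929, 349 and 634 in NKD spleen and 870.0, 300.0 and 643 in marrow, with replicate 2 lowest in both NKDxIL15tg groups and no overlap with IL15tg spleen. The change was 4.45 ± 0.43 (adjusted p = 0.000301) (4.34 without marrow replicate 3). Its 7 other probe sets were dimmer: 2 rose and 5 did not pass, 1 of them at -0.02. Maf rose by 1.41 ± 0.12, Tox, a chromatin factor needed for NK development, by 1.36 ± 0.15, Myb, a factor of progenitors, by 1.07 ± 0.15, and Ikzf3, which encodes Aiolos, by 0.71 ± 0.13. Ikzf2, which encodes Helios, fell by 2.68 ± 0.27; another probe set of the gene read 0.87 and did not pass.

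Atf2 itself did not pass the test on its brightest probe set, which read 737, 629 and 618 in IL15tg spleen, 708, 641 and 935 in NKD spleen and 533, 663 and 999 in marrow, a change of 0.10 ± 0.23 (adjusted p = 0.806). Its other probe sets disagreed: of 4, 1 was called lower at -0.68, 1 higher at 0.84, and 2 did not pass, at 0.13 and 0.29. Which of its transcripts each probe set reads was not tested.

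Cytotoxic granule genes moved in both directions. Of 23 tested, 4 rose, 4 fell and 15 did not pass the test, beside 8.03% higher and 6.08% lower over all genes. The counts were the same without marrow replicate 3. Gzmk (probe set 1422280_at), which encodes granzyme K, read 247, 239 and 225 in IL15tg spleen, 3626, 3874 and 3619 in NKD spleen and 3533, 3568 and 3524 in marrow. The 3 marrow arrays were nearly equal, both NKDxIL15tg groups lay far above IL15tg spleen, and the change was 3.90 ± 0.09 (adjusted p = 9.46e-08) (3.91 without marrow replicate 3). Prf1 (probe set 1451862_a_at), which encodes perforin, read 2832, 3485 and 3443 in IL15tg spleen, 2576, 2721 and 1802 in NKD spleen and 1920.0, 1739 and 1685 in marrow. Its marrow arrays lay under all IL15tg arrays, at -0.86 ± 0.17 (adjusted p = 0.00968); a second, dim probe set read 0.11 and did not pass. Gzmb (probe set 1419060_at), which encodes granzyme B, read 5950.1, 6241 and 5969 in IL15tg spleen, 3706, 7251 and 5011 in NKD spleen and 1688, 4623 and 3024 in marrow. Marrow lay under IL15tg spleen on every array, with marrow replicate 2 the highest of its group. The change of -1.08 ± 0.35 (adjusted p = 0.0735) did not pass the test; without that array it was -1.42 (adjusted p = 0.025, range over the alternatives 0.0246 to 0.177). Serpinb9b, a granzyme inhibitor, fell by 2.65 ± 0.19, Gzmc fell by 1.12 ± 0.24 (a call lost without IL15tg spleen replicate 1 or 2) and Ctsc, which activates progranzymes, fell by 0.93 ± 0.12. Gzmm rose by 0.72 ± 0.17, a call lost without IL15tg spleen replicate 1 or 2 or marrow replicate 2. The count of members that rose was 1 without IL15tg spleen replicate 1 or 2 and 2 without IL15tg spleen replicate 3 or marrow replicate 1 or 2. Members that fell numbered 3 without IL15tg spleen replicate 1 and 6 without marrow replicate 2, the lowest and highest counts of such fits.

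Of 31 chemokine, sphingosine 1-phosphate and adhesion receptor genes, 10 fell, 5 rose and 16 did not pass the test, with a median log2 change of -0.46 (13 and 4 without marrow replicate 3, and 3 higher without any 1 of the IL15tg spleen arrays). Beside Itgax, Cx3cr1, S1pr5 and Itgam, those that fell were Cxcr6 at -1.34 ± 0.11, Spn, which encodes CD43, at -1.04 ± 0.10, Itgb7 at -0.95 ± 0.10, and the integrin subunit Itgb2, the partner of CD11b, at -0.89 ± 0.20. Itga1 (probe set 1455251_at), the CD49a subunit that binds collagen, rose. It read 105, 110.1 and 125 in IL15tg spleen, 464, 543 and 408 in NKD spleen and 607, 488 and 371 in marrow, with no overlap between IL15tg spleen and either NKDxIL15tg group, and the change was 2.08 ± 0.18 (adjusted p = 0.000191) (2.27 without marrow replicate 3). Cxcr4 (probe set 1448710_at), the receptor that holds cells in the marrow, read 98.8, 98.6 and 98.3 in IL15tg spleen, 159, 173 and 120.0 in NKD spleen and 185, 171 and 145 in marrow. The IL15tg arrays were all lowest, and the change was 0.75 ± 0.15 (adjusted p = 0.0115); NKD spleen was nearly as high as marrow, a step of 0.16 that did not pass the test. Ccr2 rose by 0.48 ± 0.11, Itga6 by 0.50 ± 0.10 and Itgb1 by 0.66 ± 0.18. Of these small rises, that of Itgb1 was lost in all of the fits without 1 array but that without marrow replicate 2, that of Ccr2 without IL15tg spleen replicate 1 or 3, and that of Itga6 without IL15tg spleen replicate 2 and with both rescalings. The rise of Cxcr4 was lost with a common 75th percentile (adjusted p = 0.0507), and the fall of Itgb2 without IL15tg spleen replicate 1 or 2. S1pr1 and Cxcr3 did not pass, at -0.08 ± 0.45 and -0.03 ± 0.14; S1pr1 read 99.9, 95.1 and 84.1 in IL15tg spleen, 58.2, 50.3 and 57.0 in NKD spleen and 56.6, 54.7 and 217 in marrow, highest on marrow replicate 3, and without that array it fell, at -0.74.

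Several secreted products fell. Of 27 cytokine, chemokine and TNF family genes, 8 fell, 2 rose and 17 did not pass the test, beside 6.08% lower and 8.03% higher over all genes. Without marrow replicate 3, 6 fell and 1 rose, and 1 was higher in each of the 9 fits without 1 array. Ifng (probe set 1425947_at), which encodes interferon gamma, read 2739, 3168 and 2606 in IL15tg spleen, 504, 586 and 858 in NKD spleen and 324, 328 and 212 in marrow. Ccl3 (probe set 1419561_at), the chemokine MIP-1 alpha, read 2018, 2337 and 1749 in IL15tg spleen, 74.5, 95.6 and 151 in NKD spleen and 90.4, 85.2 and 152 in marrow. Ifng stepped down through all 3 groups with no overlap, whereas Ccl3 was low in both NKDxIL15tg groups, which overlapped. Their changes were -3.32 ± 0.23 (adjusted p = 4.11e-05) and -4.26 ± 0.29 (adjusted p = 3.97e-05), or -3.12 and -4.52 without marrow replicate 3. Ccl4 fell by 3.32 ± 0.15 and Ltb, lymphotoxin beta, fell by 2.51 ± 0.43. Il2 (probe set 1449990_at) rose. It read 35.7, 34.8 and 50.9 in IL15tg spleen, 215, 152 and 186 in NKD spleen and 278, 178 and 274 in marrow, with no overlap between IL15tg spleen and the others, a change of 2.58 ± 0.22 (adjusted p = 0.000162) (2.48 without marrow replicate 3).

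Among 27 cytokine receptor and survival genes, 6 fell, 1 rose and 20 did not pass the test (8 and 1 without marrow replicate 3). Over all genes the shares were 6.08% lower and 8.03% higher. Il18r1 (probe set 1421628_at), the binding chain of the IL-18 receptor, read 3399.7, 3032 and 2976 in IL15tg spleen, 561, 192 and 654 in NKD spleen and 101, 111 and 173 in marrow. Il18rap (probe set 1456545_at), its accessory chain, read 2802, 2642 and 2575 in IL15tg spleen, 1049.5, 688 and 975 in NKD spleen and 479, 522 and 881 in marrow. Both lay under IL15tg spleen on all NKDxIL15tg arrays, and Il18r1 separated the 3 groups fully. The changes were -4.65 ± 0.41 (adjusted p = 0.000186) and -2.14 ± 0.24 (adjusted p = 0.000604), or -4.88 and -2.42 without marrow replicate 3. Il7r (probe set 1448575_at), the IL-7 receptor, read 529.6, 496 and 467 in IL15tg spleen, 64.5, 41.5 and 76.0 in NKD spleen and 37.7, 39.4 and 34.2 in marrow, again in 3 separate levels, a change of -3.75 ± 0.20 (adjusted p = 9.45e-06). Socs2, an inhibitor of cytokine signalling, rose by 1.67 ± 0.33, with 2 of its 5 other probe sets called higher. The chain that receives IL-15, Il2rb, read 835, 919 and 601 in IL15tg spleen, 1152, 1091 and 787 in NKD spleen and 968, 562 and 899.6 in marrow. Its groups overlapped, and the change of 0.03 ± 0.25 (adjusted p = 0.955) did not pass the test. Bcl2 did not pass either, at -0.07 ± 0.12.

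Genes linked to immature NK cells did not move as a group. Of 22 tested, 3 rose (Sox4, Itga1 and Cxcr4), 5 fell (Il18r1, Il7r, Ltb, Kit and Cxcr6) and 14 did not pass the test, with a median log2 change of -0.08 (3 and 6 without marrow replicate 3). Kit (probe set 1452514_a_at), the stem cell factor receptor of progenitors, read 132, 152 and 133 in IL15tg spleen, 36.0, 28.5 and 27.4 in NKD spleen and 32.5, 39.2 and 29.1 in marrow. All NKDxIL15tg arrays lay under the IL15tg arrays, and the change was -2.06 ± 0.15 (adjusted p = 6.01e-05); a dimmer second probe set read -0.07 and did not pass. Some of these genes are also on other lists: Il7r is on that of early B cells and Kit and Sox4 on that of stem and mast cells.

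Genes of cell division rose. Of 39 mitosis genes tested, 33 rose, 0 fell and 6 did not pass the test, with a median log2 change of 1.67 beside 0.10 over all genes. Without marrow replicate 3, 35 rose (median 1.83). The marrow and IL15tg spleen groups did not overlap for 38 of the 39, all higher in marrow, beside 22.1% of all genes. Mki67 (probe set 1426817_at), the proliferation antigen Ki-67, read 355, 216 and 412 in IL15tg spleen, 518, 878 and 1043 in NKD spleen and 1348, 1386 and 1336 in marrow. Cdk1 (probe set 1448314_at), the kinase that starts mitosis, read 187, 169 and 261 in IL15tg spleen, 378, 842 and 705 in NKD spleen and 1001, 1171 and 954 in marrow. In both, every marrow array was above every NKD spleen array and every NKD spleen array above every IL15tg spleen array. The changes were 2.10 ± 0.29 (adjusted p = 0.0018) and 2.36 ± 0.28 (adjusted p = 0.000925), or 2.11 and 2.42 without marrow replicate 3.

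The 3 largest rises of the list were those of Nusap1 (probe set 1416309_at), a spindle protein, Ube2c (probe set 1452954_at), which marks mitotic cyclins for destruction, and Bub1 (probe set 1424046_at), a spindle checkpoint kinase. Nusap1 read 137, 101 and 181 in IL15tg spleen, 319.6, 557 and 605 in NKD spleen and 690.5, 1024 and 720.1 in marrow, a change of 2.55 ± 0.29 (adjusted p = 0.000684). Ube2c read 47.2, 30.8 and 39.5 in IL15tg spleen, 76.0, 156 and 105 in NKD spleen and 169, 222 and 228 in marrow, a change of 2.40 ± 0.26 (adjusted p = 0.00058). Bub1 read 64.9, 33.5 and 71.2 in IL15tg spleen, 83.2, 209 and 216 in NKD spleen and 234, 348 and 264 in marrow, a change of 2.37 ± 0.40 (adjusted p = 0.00519). All 3 ordered the groups without overlap. Dimmer second probe sets of Nusap1 and Bub1 did not pass the test, at 0.35 and 1.33. In the step from NKD spleen to marrow alone, 0 of the 39 genes passed with limma (median 0.71; 24 were higher at an unadjusted p of 0.05), beside 0.0166% of all genes, while 27 had passed in the step from IL15tg to NKD spleen (median 1.14), beside 5.04% of all genes for that step. The 6 members that did not pass in the whole comparison were Cenpe, Hmmr, Kif22, Kif23, Kif4 and Racgap1; Kif22, Kif23, Kif4 and Hmmr were much higher on marrow replicate 3 than on the other marrow arrays.

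**Figure D4:**
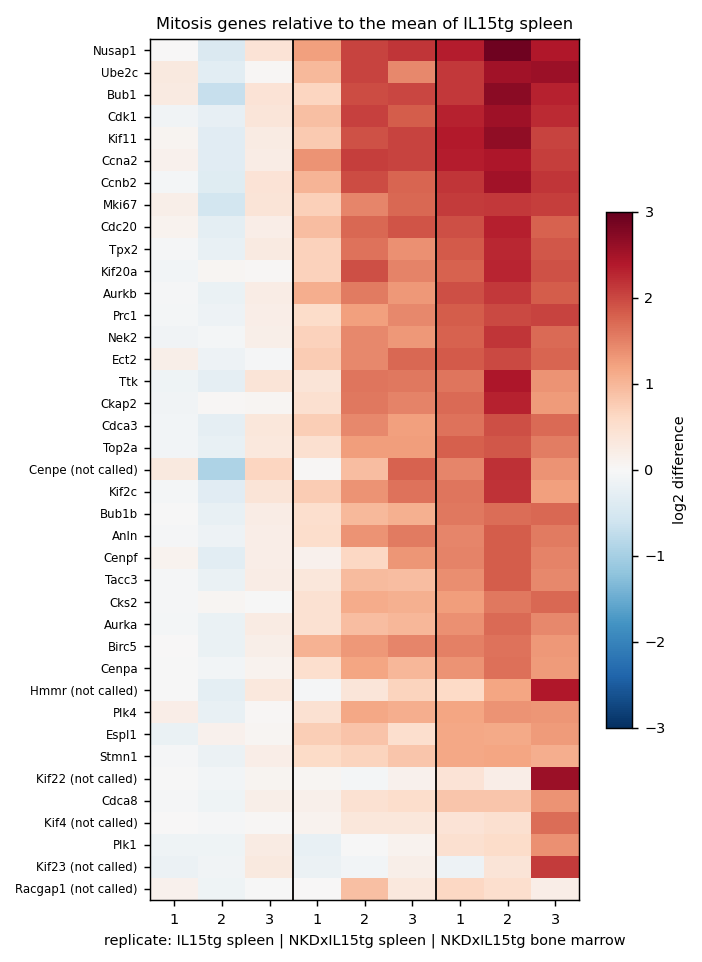
Log2 difference of each of the 39 tested mitosis genes from its mean in IL15tg spleen, by array; columns are replicates 1 to 3 of IL15tg spleen, NKDxIL15tg spleen and NKDxIL15tg bone marrow, and rows are ordered by change. Red is higher and blue lower, on a scale from -3 to 3. The marrow columns are red in nearly all rows and the NKDxIL15tg spleen columns paler, while Kif22 and Kif23 are strongly red only in marrow replicate 3.

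The 3 genes are shown with the 250 bases before their start sites because promoters of mitotic genes commonly hold CCAAT boxes, bound by NF-Y, and the cell cycle homology element TTTGAA. The sequences are from RefSeq on GRCm38.p6, read 5′ to 3′ on the gene's strand, at chr2:119618048-119618297 on the plus strand for Nusap1, chr2:164769679-164769928 on the plus strand for Ube2c and chr2:127831860-127832109 on the minus strand for Bub1. Capitals mark CCAAT and TTTGAA and, for the other strand, ATTGG and TTCAAA; overlapping matches were both counted.
Nusap1: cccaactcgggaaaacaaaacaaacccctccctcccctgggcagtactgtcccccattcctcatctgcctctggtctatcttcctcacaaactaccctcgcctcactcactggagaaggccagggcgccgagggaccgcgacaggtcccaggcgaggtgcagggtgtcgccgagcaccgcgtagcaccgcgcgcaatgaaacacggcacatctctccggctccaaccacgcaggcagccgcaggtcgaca
Ube2c: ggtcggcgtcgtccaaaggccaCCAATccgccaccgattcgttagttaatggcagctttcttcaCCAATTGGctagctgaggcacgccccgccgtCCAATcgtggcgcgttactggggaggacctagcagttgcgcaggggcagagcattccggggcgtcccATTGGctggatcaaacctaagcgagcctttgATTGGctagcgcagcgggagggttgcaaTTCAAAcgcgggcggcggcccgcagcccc
Bub1: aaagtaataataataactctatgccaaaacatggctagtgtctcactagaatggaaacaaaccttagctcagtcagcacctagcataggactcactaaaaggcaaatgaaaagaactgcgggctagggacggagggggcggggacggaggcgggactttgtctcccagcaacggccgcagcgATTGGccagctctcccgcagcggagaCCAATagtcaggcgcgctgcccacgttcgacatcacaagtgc
Ube2c held 7 matches, Bub1 2 and Nusap1 0 in these 250 bases. Of the 33 mitosis genes that rose, 28 had promoter windows of 300 bases in the table, 30 windows in all. Only the 250 bases before the start site were searched in each window. There, CCAAT lay in 24 of the 30 (80%), TTTGAA in 13 (43.3%) and both in 12 (40%), on either strand. In the same 250 bases of all 32851 windows the shares were 33.8%, 16% and 5.55%. A match is a string of letters and no evidence of binding.

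DNA replication genes followed. Of 36 tested, 21 rose, 1 fell and 14 did not pass the test, with a median log2 change of 0.87 (24 and 1 without marrow replicate 3). Rrm2 (probe set 1434437_x_at), a subunit of ribonucleotide reductase, read 358, 292 and 419 in IL15tg spleen, 598, 835 and 1026 in NKD spleen and 1033, 1323 and 951 in marrow. All 6 NKDxIL15tg arrays lay above IL15tg spleen, and the change was 1.63 ± 0.22 (adjusted p = 0.0017). Cdc6, which loads the replicative helicase, rose by 1.78 ± 0.21, and Mcm5, a helicase subunit, by 0.76 ± 0.11. Cdc45 (probe set 1457838_at), a helicase partner, was the 1 that fell. It read 445, 332 and 436 in IL15tg spleen, 238, 276 and 316 in NKD spleen and 179, 240.3 and 191 in marrow, with all marrow arrays under all IL15tg arrays, a change of -0.99 ± 0.17 (adjusted p = 0.00554).

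Immediate-early and stress genes, which respond quickly to signals and to handling of cells, fell in part. Of 36 tested, 18 fell, 1 rose and 17 did not pass the test, with a median log2 change of -0.72 (the same counts without marrow replicate 3). Fos (probe set 1423100_at) read 1315, 2264 and 1180.2 in IL15tg spleen, 101, 337 and 365 in NKD spleen and 125, 76.6 and 77.8 in marrow. Dusp1 (probe set 1448830_at), a phosphatase that ends MAP kinase signals, read 1319, 1843 and 1352 in IL15tg spleen, 450.3, 896 and 574 in NKD spleen and 423, 277 and 153 in marrow. Marrow lay under IL15tg spleen in both, and Dusp1 separated all 3 groups. The changes were -4.07 ± 0.48 (adjusted p = 0.000809) and -2.51 ± 0.37 (adjusted p = 0.00254), or -3.96 and -2.12 without marrow replicate 3. Hspa1b (probe set 1452318_a_at), a heat shock protein, read 509.7, 381 and 1359 in IL15tg spleen, 108, 279.7 and 237 in NKD spleen and 71.1, 112 and 54.2 in marrow; IL15tg spleen replicate 3 was well above its group, and the change was -3.09 ± 0.51 (adjusted p = 0.00473). Jun fell by 2.31 ± 0.43 and Nr4a2 fell by 2.63 ± 0.37. The probe sets of Nr4a2 disagreed: of 5 others, 3 fell and 2 read 0.05 and 0.71 and did not pass. Myc (probe set 1424942_a_at) was the 1 that rose, at 133, 129.9 and 118 in IL15tg spleen, 178, 286 and 215 in NKD spleen and 206, 226 and 241 in marrow, a change of 0.82 ± 0.17 (adjusted p = 0.0122). How long each organ's cells were handled is not stated in the labels, and its part in these values was not tested.

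Class I antigen processing rose in part. Of 15 genes tested, 5 rose, 0 fell and 10 did not pass the test (4 and 0 without marrow replicate 3, 2 without IL15tg spleen replicate 1 or marrow replicate 1, and 3 without IL15tg spleen replicate 2). Psmb8 (probe set 1422962_a_at) and Psmb9 (probe set 1450696_at), 2 subunits of the immunoproteasome, were the largest. Psmb8 read 659, 628 and 527 in IL15tg spleen, 1349.7, 1652 and 1178 in NKD spleen and 1648, 1494 and 1668 in marrow and Psmb9 read 598, 629.8 and 591 in IL15tg spleen, 1394, 1367 and 1089 in NKD spleen and 1489.8, 1299 and 1954 in marrow. In both, every NKDxIL15tg array was above every IL15tg array. The changes were 1.41 ± 0.15 (adjusted p = 0.000421) and 1.36 ± 0.16 (adjusted p = 0.000885), or 1.38 and 1.20 without marrow replicate 3. Of 26 interferon-stimulated genes, 2 rose, Gbp2 at 1.05 ± 0.13 and Isg20 at 0.73 ± 0.16, 0 fell and 24 did not pass the test (3 rose without marrow replicate 3). Over all genes 8.03% rose and 6.08% fell, so that 2 rises of 26 are near the general share. The Isg20 call was lost with both rescalings and without IL15tg spleen replicate 1 or 2 or marrow replicate 2, which left 1 rise.

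The middle step shows how much of each difference was already present in NKD spleen. From IL15tg spleen to NKD spleen 3794 probe sets passed the test (8.54%), and from NKD spleen to marrow 15 did (0.0338%), 3 higher and 12 lower (0.027%). Without marrow replicate 3 these counts were 5446 (12.3%) and 11 (0.0248%). Among the 5971 probe sets called over the whole distance, 3184 were called in the first step and not in the second, 9 in the second and not in the first, 2772 in neither, 5 in both in the same direction and 1 in opposite directions. The count of the first kind was 1564, 1603 and 1892 without IL15tg spleen replicates 1, 2 and 3 and 1939 without NKD spleen replicate 2. That of neither step was 1452 and 1785 without IL15tg spleen replicates 1 and 2. It was 1847 without marrow replicate 2 and 4222 without NKD spleen replicate 2. The count of neither step was the larger of the 2 without IL15tg spleen replicate 2 or 3 and without any 1 of the NKD spleen arrays. The same held with both rescalings. Calls of the second step numbered 3 without IL15tg spleen replicate 2, 1 and 2 without NKD spleen replicates 1 and 3, 2 without marrow replicate 2 and 4 with a floor of 64. For the 807 with at least a 2-fold rise (1.82% of those tested), NKD spleen already held a median 86.8% of the log2 change (quartiles 68.0% and 102%); for the 1141 with at least a 2-fold fall (2.57%) it held 83.0% (quartiles 70.1% and 92.8%). The comparisons share the NKD spleen arrays, so that error in these arrays moves both steps in opposite directions.

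A call in 1 step only does not show that the steps differ, and the difference was tested directly. It passed for 467 probe sets (1.05%), and for 589 (1.33%) without marrow replicate 3. Among the 2-fold rises the first step was larger for 225 of 807 and the second for 0 (10 at an unadjusted p of 0.05); among the 2-fold falls the first was larger for 114 of 1141 and the second for 4. Gzmk (adjusted p of the difference 1.19e-05), Itgax (0.000194), Ccl3 (0.00446) and Sox4 (0.0225) had the larger first step. S1pr5, Il18r1 and Ifng had second steps of -1.91, -1.73 and -1.16 after first steps of -2.01, -2.92 and -2.16. For these 3 genes neither the second step nor the difference of steps passed the test. P-values were adjusted within each step, so that steps of like size and error can differ in call. For S1pr5 the standard error was 0.32 in both steps, and limma gave an adjusted p of 0.00524 in the first and 0.207 in the second. A second step that did not pass is therefore no sign of its absence.

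The 5 probe sets called in both steps all fell and read 4 genes, 3 of them of B cells. Ms4a1 (probe set 1423226_at), which encodes CD20, read 292, 475 and 557 in IL15tg spleen, 148, 162 and 115 in NKD spleen and 20.4, 16.3 and 18.2 in marrow. Pou2af1 (probe set 1416957_at), a B cell coactivator, read 172, 272 and 360.1 in IL15tg spleen, 82.8, 79.2 and 70.0 in NKD spleen and 11.2, 11.7 and 11.6 in marrow. Cr2 (probe set 1425289_a_at), the complement receptor CD21, read 94.1, 141 and 151 in IL15tg spleen, 65.2, 62.2 and 67.5 in NKD spleen and 19.2, 22.2 and 19.8 in marrow. In each, the 3 groups were fully separate, with IL15tg spleen replicate 1 the lowest of its group. Macir, a regulator of macrophage function, went from 845 ± 39.4 (SD, n = 3) through 519 ± 55.2 (SD, n = 3) to 263 ± 13.6 (SD, n = 3). Second steps were -2.94, -2.27, -1.67 and -0.98. The marrow mean of Pou2af1 lay under the floor, so that its second step depends on it. Macir was not called in both steps without marrow replicate 3. The count was 0 without NKD spleen replicate 1 or marrow replicate 2, 1 without IL15tg spleen replicate 2 or NKD spleen replicate 3, and 3 without marrow replicate 1. Same-numbered arrays of NKD spleen and marrow deviated together from their group means; with the number as a block the second step of Pou2af1 (adjusted p = 0.0552), Macir (0.0712) and Adamdec1 (0.0629) did not pass, Apol11b passed (0.0442), and Prtn3 was called in both steps.

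The order of the groups was also counted, a measure added after so few calls were seen in the second step. In 267 genes (1.48%) all NKD spleen arrays lay above all IL15tg arrays and all marrow arrays above those, and in 206 (1.14%) the order ran downwards. Without marrow replicate 3 these counts were 446 (2.47%) and 324 (1.79%). Mitosis genes held 23 of the ordered rises, of 39 tested, and replication genes 10, of 36. Neutrophil granule genes held 12, of 20. Matn2, an extracellular matrix protein, was the 1 probe set called in opposite directions: it read 12.6, 19.0 and 15.5 in IL15tg spleen, 131, 136 and 137 in NKD spleen and 56.0, 48.0 and 49.5 in marrow, highest in NKD spleen with no overlap.

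Markers of other blood cells moved with the comparison. Neutrophil granule genes rose most: of 20 tested, 17 rose, 0 fell and 3 did not pass the test, with a median log2 change of 3.44 (16 and 2.96 without marrow replicate 3). Their summed intensity was 4210 to 4920 in IL15tg spleen, 6961 to 12141 in NKD spleen and 16172 to 37556 in marrow, highest on marrow replicate 3. Mpo (probe set 1415960_at), myeloperoxidase of neutrophil precursors, read 103, 94.4 and 112 in IL15tg spleen, 159, 142 and 182 in NKD spleen and 613, 1178 and 1588 in marrow. Camp (probe set 1419691_at), the antimicrobial cathelicidin, read 42.9, 31.4 and 44.5 in IL15tg spleen, 204, 335 and 646 in NKD spleen and 1380.3, 2489 and 4203 in marrow. S100a8 (probe set 1419394_s_at), a calcium-binding protein of neutrophils and monocytes, read 137, 83.3 and 222 in IL15tg spleen, 941, 1435 and 3043 in NKD spleen and 3643, 5666 and 6955 in marrow. The 3 groups were separate in all 3 genes. The changes were 3.35 ± 0.29 (adjusted p = 0.000179), 5.96 ± 0.46 (adjusted p = 8.92e-05) and 5.26 ± 0.47 (adjusted p = 0.000198), or 3.05, 5.57 and 5.06 without marrow replicate 3.

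The genes Prtn3 and Ctsg, of granule proteases, and Mpo were the 3 probe sets that rose from NKD spleen to marrow, at 3.25, 3.47 and 2.71, beside 0.00676% of all probe sets in that step and direction. In the 9 fits without 1 array, Prtn3 and Ctsg passed this step only without marrow replicate 1 and Mpo only without marrow replicate 1 or 3. Prtn3 (probe set 1419669_at) read 27.7, 44.7 and 29.7 in IL15tg spleen, 57.0, 71.5 and 72.8 in NKD spleen and 339, 964 and 779 in marrow. Its NKD spleen arrays lay slightly above IL15tg spleen and its marrow arrays far above both. Elane, neutrophil elastase, rose over the whole distance by 1.44 ± 0.38 and did not pass in 6 of the 9 fits without 1 array or with the 6 arrays alone. Ngp rose by 5.16 ± 0.35, Chil3 by 5.11 ± 0.52 and Lcn2 by 4.86 ± 0.60, the last with 1598 on marrow replicate 3 against 249 and 368 on the other marrow arrays. Without that array the change of Lcn2 was 4.06. The part of neutrophil RNA in the other results was not tested.

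**Figure D5:**
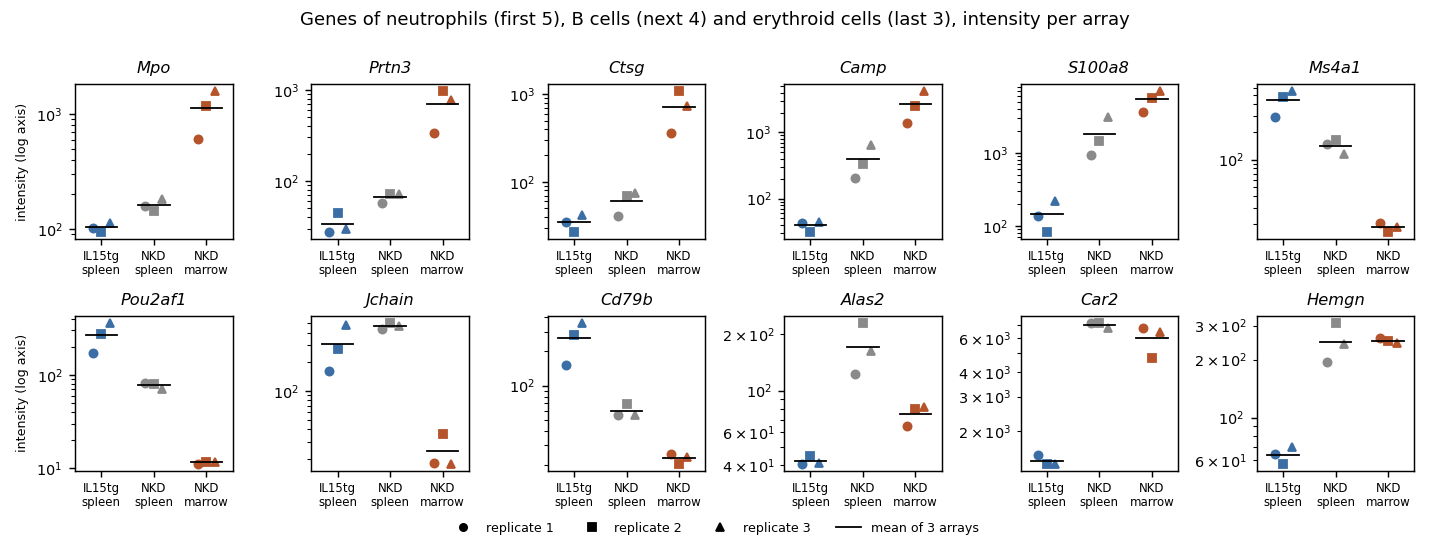
Intensity per array, on a log axis that differs between panels, of 5 neutrophil genes, 4 B cell genes and 3 erythroid genes in IL15tg spleen (blue), NKDxIL15tg spleen (grey) and NKDxIL15tg bone marrow (orange); symbols are replicates 1 to 3 and lines the means of 3 arrays. Mpo, Prtn3 and Ctsg are high in marrow alone, Jchain is low in marrow alone, and Car2 and Hemgn are high in both NKDxIL15tg groups.

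Mature B cell and plasma cell genes went down. Of 20 tested, 10 fell, 0 rose and 10 did not pass the test, with a median log2 change of -0.53 (9 and 0 without marrow replicate 3). Their summed intensity was 6065 to 7947 in IL15tg spleen, 6039 to 7368 in NKD spleen and 4225 to 6220.3 in marrow. Beside Ms4a1, Pou2af1 and Cr2, Jchain (probe set 1424305_at), which joins IgM and IgA chains, fell. It read 161, 271 and 486 in IL15tg spleen, 435, 503 and 468 in NKD spleen and 18.0, 35.9 and 17.7 in marrow, overlapping in the 2 spleen groups and low in marrow. Its change was -3.62 ± 0.39 (adjusted p = 0.000534). Its step from NKD spleen to marrow was -4.38 (called in 6 of the 9 fits without 1 array). The difference of steps passed the test (adjusted p = 0.00862). Probe set 1452417_x_at, without a single gene, was the only 1 called in this step in all 9 such fits. It read 904, 1402 and 1501 in IL15tg spleen, 1021, 774 and 744 in NKD spleen and 51.1, 70.5 and 43.7 in marrow. Its step was -3.96 (adjusted p = 0.00181). The steps of Igkv8-30, 1427660_x_at and 1427455_x_at were -2.51, -3.23 and -2.40, called in 4, 4 and 3 of these fits. These probe sets are not on the list or in its sums. Of early B cell and early lymphoid genes, 5 of 19 fell and 2 rose (1 without marrow replicate 2 or any 1 of the IL15tg spleen arrays), beside 6.08% and 8.03% of all genes. Cd79b (probe set 1417640_at), the signalling chain of the B cell receptor, read 153, 277 and 356 in IL15tg spleen, 54.5, 68.3 and 54.6 in NKD spleen and 24.6, 20.4 and 23.3 in marrow, a change of -3.44 ± 0.27 (adjusted p = 9.36e-05). The precursor genes Vpreb1, Igll1, Dntt and Rag1 did not pass, at 0.45 ± 0.15, 0.44 ± 0.16, 0.26 ± 0.14 and 0.20 ± 0.09. The class II gene H2-Aa, on the list of monocytes, macrophages and dendritic cells and also expressed by B cells, fell by 2.25 ± 0.24. Of the 28 genes of that list 5 fell and 4 rose, beside 6.08% and 8.03% of all genes (summed intensity 8762 to 12429 in IL15tg spleen and 7987 to 13558 in marrow). Lyz1 and F13a1, 2 other members of that list, rose by 2.94 ± 0.50 and 1.84 ± 0.30, the latter not with a floor of 64. Csf1r read 726, 731 and 755 in IL15tg spleen, 652, 616 and 709 in NKD spleen and 634, 656 and 2599.8 in marrow, high on marrow replicate 3 alone, and did not pass.

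Erythroid genes rose in part: 6 of 18, with 0 lower and a median of 0.51 (4 and 0.30 without marrow replicate 3; 2 without IL15tg spleen replicate 1 or 2 or marrow replicate 2, and 3 without IL15tg spleen replicate 3). Their summed intensity was 2530.5 to 2688 in IL15tg spleen, 8659 to 9455 in NKD spleen and 6562 to 8644 in marrow, and Car2 gave most of it. Car2 (probe set 1448752_at), carbonic anhydrase 2, which other cells express too, read 1509.8, 1357 and 1356 in IL15tg spleen, 7121, 7150.3 and 6778 in NKD spleen and 6769, 4726 and 6463 in marrow. Both NKDxIL15tg groups lay above IL15tg spleen, at 2.07 ± 0.14 (adjusted p = 4.11e-05). Hemgn rose by 1.97 ± 0.16 and Alas2, the first enzyme of haem synthesis, by 0.83 ± 0.21, a call lost without any 1 of the IL15tg spleen arrays, without marrow replicate 2 or 3 and with a floor of 64. Alas2 was highest in NKD spleen, at 172 ± 54.2 (SD, n = 3), against 75.4 ± 9.25 (SD, n = 3) in marrow. Hba-a1, an alpha globin gene, read 30.0, 28.1 and 26.7 in IL15tg spleen, 34.5, 33.7 and 34.3 in NKD spleen and 34.7, 35.8 and 35.0 in marrow and did not pass the test, at 0.32 ± 0.09 (adjusted p = 0.0507).

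Of 16 T cell genes, 2 rose and 0 fell, beside 8.03% and 6.08% of all genes. Cd28 (probe set 1417597_at), a costimulatory receptor, read 387, 411 and 342 in IL15tg spleen, 1776, 1395 and 1741 in NKD spleen and 1367, 1189 and 1675 in marrow, a change of 1.88 ± 0.16 (adjusted p = 0.000131) with no overlap between IL15tg spleen and the other groups. Trat1 rose by 1.46 ± 0.23, while Cd3e read 52.9, 51.3 and 64.02 in IL15tg spleen, 85.9, 54.4 and 41.0 in NKD spleen and 67.8, 47.0 and 87.8 in marrow and did not pass. In all, 3 of 15 stem cell, mast cell and basophil genes rose and 1 fell, and 0 of 14 stromal and vessel genes passed with limma in either direction (2 higher and 0 lower at an unadjusted p of 0.05). At that unadjusted p, the other lists with 0 calls in a direction held 1 higher mature NK cell gene, 2 lower adaptor and kinase genes, 3 lower interferon-stimulated genes, 1 lower T cell gene and 0 for lower mitosis, neutrophil granule, class I and erythroid genes and higher Ly49, mature B and plasma cell genes. Summed intensities of these lists were 664 to 723 in IL15tg spleen and 703 to 790 in marrow for stroma, and 1979 to 2155 and 3354 to 4174 for T cells. The part of these cells in the other results was not tested.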

How the data were processed

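Linear intensities of 45101 probe sets on 9 Affymetrix arrays, as deposited by the authors, were analysed. Per the labels, total RNA was extracted with Trizol and labelled after 2 cycles of amplification from the 3′ end; such products are short, so that probe sets far from a transcript's 3′ end can read low. The sources used here do not give the summarisation of probes or the scaling of arrays, so that the intensities were used without rescaling. The 64 control probe sets were left out, values under 16 (4.35%) were set to 16, and log2 was taken. The remaining 44402 probe sets that were not at the floor on all 9 arrays were tested.

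With limma 3.58.1 (lmFit, eBayes; R 4.3.3), 3 group means were fitted to the 9 arrays, with 2-sided tests, Benjamini-Hochberg adjustment over all tested probe sets and a threshold of 0.05. The fit was tested on simulated data. Log2 changes had a median standard error of 0.15, and the number of arrays limits the precision. Of the non-control probe sets, 34945 carried 1 gene symbol in the platform annotation, 932 several and 9160 none. Of those with 1 symbol, 34741 were matched by gene number to RefSeq (GRCm38.p6), whose symbols were used. A gene was read by its brightest probe set with 1 symbol (18193 genes, 18069 tested). Genes named were the 10 largest rises and falls called with and without marrow replicate 3, without overlap and with a mean of at least 100 in the higher group, genes called in both steps, up to 3 called members of each list, and a set of NK and blood cell genes whatever their result, 97 in all; other list members were named after their values were seen. The members and lists were chosen with earlier results of these data known. Tcf7, Ccnb1 and Klrb1c had no probe set of their own and were not analysed here.

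Same-numbered arrays of NKD spleen and marrow deviated together from their group means (correlations 0.194 to 0.319 over probe sets, against -0.281 to -0.0209 for other numbers). Their numbers may therefore pair these samples, which the sample titles do not state. Deviations within a group sum to 0, so that higher correlations for the same number force lower ones for other numbers. The main fit did not use the numbers. For IL15tg spleen and marrow the correlations were 0.0223 to 0.201 and the numbers were not taken as pairs. Alternatives were the 6 arrays alone, the replicate number as a block, quantile normalization, a common 75th percentile, a floor of 64, a filter at the 40th percentile, an intensity trend with robust eBayes, array weights, leaving out each array, and other probe sets of a gene.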

Additional observations from a re-analysis of the deposited data

How the results depend on the processing

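The count of 5971 probe sets between marrow and IL15tg spleen was 5351 with the 6 arrays alone, 5960 with quantile normalization, 5206 with a common 75th percentile, 5427 with a floor of 64, 5764 with the filter, 5992 with an intensity trend and 8271 with array weights, and 0 probe sets were called in the opposite direction in any of them. Leaving out 1 array gave 3030 to 6346 (1310 to 2749 higher, 1720 to 3597 lower), 0 to 7 probe sets called in both steps, 1 to 15 in the second step and 213 to 589 for the difference of steps. A floor of 64 left 1 probe set called in both steps. With the replicate number as a block, 6097 were called, 4 in both steps, 12 in the second step and 391 for the difference; among the named genes Gzmb passed and Pdia3, of class I antigen loading, did not, 1 cytokine and 3 class I processing genes rose in place of 2 and 5, and calls of the second step changed as given for Pou2af1, Macir, Adamdec1, Apol11b and 1 immunoglobulin-like probe set without a single gene (adjusted p = 0.0577). For IL15tg spleen and marrow the numbers were not taken as pairs. The block changed no other call of a named gene and moved no other list's count past 1.5 times. Of 97 named genes, 80 were called and 69 of these were called in all 9 fits without 1 array; over those fits, 676 of 720 calls were kept and 44 lost, and uncalled genes gained 3. Second probe sets read the other way for Atf2 (-0.68), Ikzf2 (0.87), Nr4a2 (0.71 and 0.0452), Prf1 (0.11), Socs2 (-0.11), Sox4 (-0.0173), Top2a (-0.0786) and Igll1 (-0.21); the cause was not tested. Probe sets near the floor have changes that depend on it, as for Tbx18, Cpe, Dlx1, Vegfc and Pou2af1.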
